A study of Mus musculus with 6 samples.

Results

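The genes described here are 52 protein components of the core spliceosome outside the U4/U6.U5 tri-snRNP, chosen by symbol from the 24041 genes of a count table. They are the Sm ring (7 genes), the LSm ring (7), the U1 snRNP proteins (3), the U2 snRNP proteins with SF3 (11), the branch point and 3′ splice site factors (4), the Prp19 complex and its partners (11), the DEAH-box helicases (4), the step 2 factors (3) and the SRRM coactivators (2). All 52 were found under their own symbols, and all 52 passed the filter on low counts that left 14451 genes to test. The libraries came from mouse cerebral cortex cells that had received plasmid DNA by electroporation and were sorted for green fluorescent protein (GFP). Both groups carried GFP. With it, 3 libraries had wild-type PRPF6 (WT) and 3 had mutant PRPF6 (MUT), a protein of the tri-snRNP. The labels give no age, strain, mutation, plasmid promoter or plasmid species, and name no animal for any library, so a p-value here measures spread among 6 libraries that may be technical in part or whole. No library lacked a PRPF6 plasmid.

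The spliceosome removes introns from precursor RNA. In the major spliceosome the U1 snRNP recognises the 5′ splice site, and SF1 with the U2AF pair marks the branch point, the polypyrimidine tract and the 3′ splice site before the U2 snRNP, with its SF3a and SF3b parts, takes over the branch point. The tri-snRNP then joins, the Prp19 complex enters as U1 and U4 leave, and DEAH-box helicases drive the particle through both catalytic steps and its disassembly. Most of these proteins are needed in every cell, and dividing cortical progenitors and young neurons both express them.

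Total expected counts were 45115122 to 60600617 per library. Members had 1533 to 37786 counts in a library, so that the spread between libraries, not counting error, limits the values below. Summed levels of cell type markers differed between libraries, and the sums of the groups overlapped in each of the 8 lists. Fitted means with mutant PRPF6 were higher in 7 of 7 radial glia genes (median log2 difference 0.55). They were lower in 7 of 7 neuronal genes (median −0.92). They were also lower in 9 of 9 red blood cell, 5 of 5 meningeal fibroblast and 3 of 3 tested endothelial genes. Higher means were found in 5 of 6 cycling cell, 4 of 5 interneuron and 5 of 6 microglia genes, beside 49.8% of all tested genes. No marker passed the test given below. Summed over 7 radial glia genes the level was 1553 to 2131 CPM (counts scaled by the size of each library) with wild-type and 1989 to 3866 CPM with mutant PRPF6, and over 7 neuronal genes 2305 to 2986 and 1263 to 2328 CPM. Cycling cell genes (6) summed to 1173 to 1944 and 1038 to 2494 CPM, interneuron genes (5) to 132 to 775 and 288 to 682 CPM, and red blood cell genes (9, of which Hbb-bt and Hbb-b2 hold the same values) to 990.1 to 16893 and 79.2 to 1437 CPM. Meningeal fibroblast genes (5) summed to 118 to 1602 and 10.2 to 156 CPM, microglia genes (6) to 48.1 to 144 and 17.2 to 379 CPM, and endothelial genes (5) to 0.516 to 100.2 and 0.821 to 41.8 CPM. Hbb-bs, Cdh5 and Flt1 were each at 0 in 1 library, and the other markers were detected in every library. The radial glia and neuronal markers that define cortical cells were present in all 6 libraries. The part of these cells in the results below was not tested, and in bulk samples fewer cells of a type and less RNA per cell cannot be told apart.

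No member passed edgeR's quasi-likelihood test between mutant and wild-type PRPF6 (adjusted p = 1.00 for each of the 52), and 0% of all tested genes passed. At an unadjusted p under 0.05 stood 1 of 52 members, U2af2, against 489 of 14451 genes (3.38%). DESeq2 also called 0 members, though it called 12 other genes, and limma-voom called 0 members and 0 genes. U2af2 was higher with mutant PRPF6, as were 2.18% of all tested genes at an unadjusted p under 0.05. At that p 0 members and 1.2% of all genes were lower. Fitted means with mutant PRPF6 were higher in 29 members (49.8% of all tested genes) and lower in 23 (50.2%). The median log2 difference was 0.028 over the members and −0.0013 over all tested genes. With upper-quartile scaling the split was 27 higher and 25 lower, and with limma-voom 25 and 27. It turned with single libraries: without wild-type replicate 3 it was 24 higher and 28 lower, without mutant replicate 2 it was 39 and 13, and without mutant replicate 3 it was 17 higher and 35 lower.

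The fitted differences were small beside a 2-fold change. Single members ran from −0.25 (Snrpb2) to 0.43 (U2af2) on the log2 scale. The 95% interval of the difference lay within a 2-fold change in either direction for all 52 members, against 45.6% of all tested genes and 85.5% of the 5531 tested genes whose mean CPM lay in the members' range, 44.0 to 632 CPM. It lay within a 1.5-fold change for 31 members, against 16.2% of all tested genes and 38.9% of those in the same range of level. The count within 2-fold was 51 without wild-type replicate 1, wild-type replicate 3, mutant replicate 1 or mutant replicate 2. It was also 51 with no robust estimation and with the replicate block. With all libraries the interval of Dhx16 reached 0.998 on the log2 scale, next to the bound. The median standard error (SE) of a member's log2 difference was 0.18, beside 0.34 over all tested genes and 0.21 over those in the members' range. Groups did not overlap in 3 members (5.77%) and in 9.14% of all tested genes. In U2af2, Sf1 and Sf3b2 the lowest mutant library exceeded the highest wild-type one, as it did in 4.6% of all genes, and the opposite order occurred in 0 members and 4.54% of all genes.

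**Figure D1:**
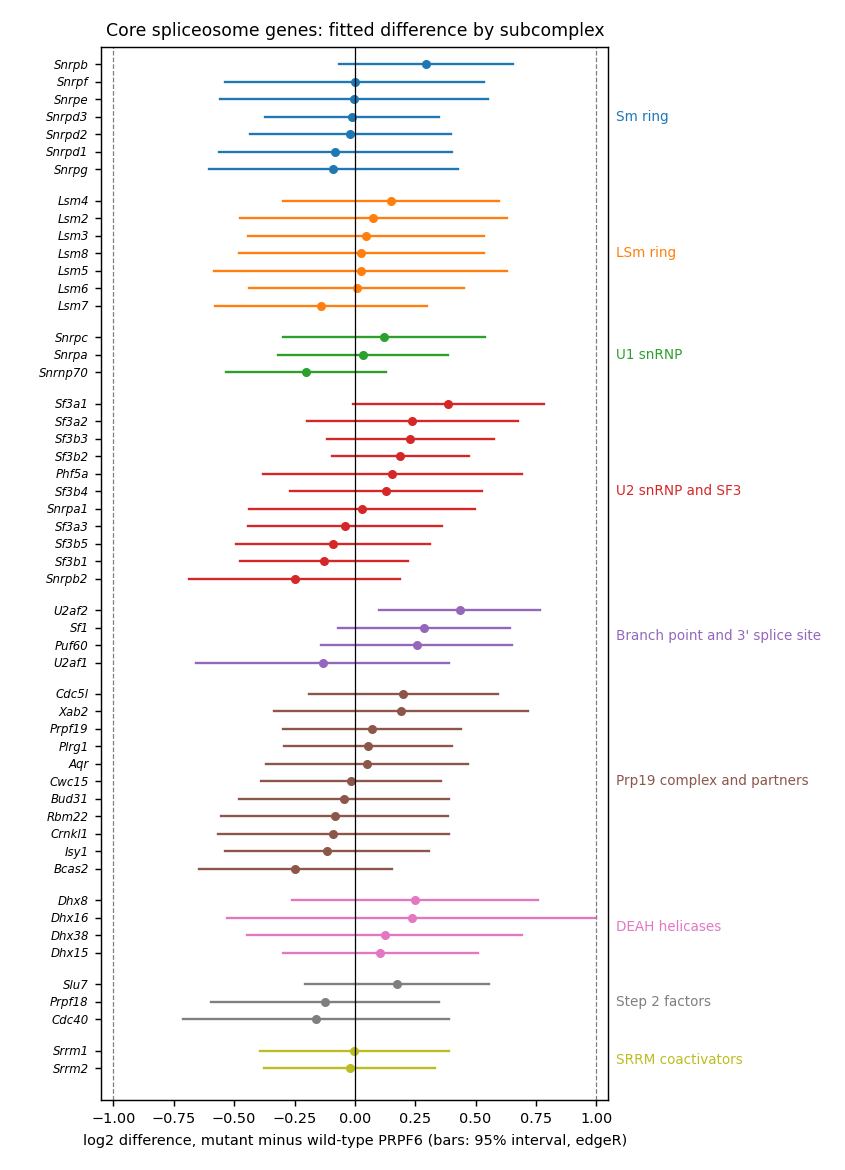
Fitted log2 difference (mutant minus wild-type PRPF6) of each of the 52 members on the horizontal axis, with members ordered by difference within each subcomplex. Points are the edgeR estimates, bars their 95% intervals and dashed lines a 2-fold change; all 52 bars lie between the dashed lines, and only that of U2af2 leaves out 0.

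Promoter sequence was available for 40 of the 52 members (RefSeq, GRCm38.p6, 250 bases before to 50 after the start, the entry listed first for each gene). Of the 5 below, Sf1 and Sf3b2 are shown because their groups did not overlap. Sf3a1 had the largest difference among the members with an entry. Snrpe and Lsm7 are 1 gene from each ring. Lsm7 was highest in wild-type replicate 1, not in mutant replicate 3 as the rest of its ring was. Each line gives the 150 bases before the start, 5′ to 3′, with capitals for the letters of any motif searched.
Sf1, chr19:6363540-6363689, plus strand: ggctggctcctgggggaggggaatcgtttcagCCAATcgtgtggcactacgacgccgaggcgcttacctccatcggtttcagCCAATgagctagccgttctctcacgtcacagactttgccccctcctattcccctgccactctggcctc
Sf3b2, chr19:5295458-5295607, minus strand: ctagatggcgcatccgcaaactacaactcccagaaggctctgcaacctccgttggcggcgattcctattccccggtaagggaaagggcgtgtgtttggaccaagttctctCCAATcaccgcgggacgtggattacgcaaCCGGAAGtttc
Sf3a1, chr11:4160204-4160353, plus strand: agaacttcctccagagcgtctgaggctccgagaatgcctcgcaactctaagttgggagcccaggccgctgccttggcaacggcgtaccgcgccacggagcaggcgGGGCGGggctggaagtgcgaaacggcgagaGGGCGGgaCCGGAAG
Snrpe, chr1:133610281-133610430, minus strand: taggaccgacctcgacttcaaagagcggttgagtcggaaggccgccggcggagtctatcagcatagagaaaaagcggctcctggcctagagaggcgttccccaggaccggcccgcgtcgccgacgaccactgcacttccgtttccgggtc
Lsm7, chr10:80855210-80855359, minus strand: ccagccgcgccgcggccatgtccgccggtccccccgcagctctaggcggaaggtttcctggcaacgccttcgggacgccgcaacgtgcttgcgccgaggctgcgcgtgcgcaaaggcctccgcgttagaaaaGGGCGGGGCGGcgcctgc
The motifs were searched on both strands over the 300 bases, and a match is a description, not a bound site. CCGGAAG, the letters of an ETS motif, stood in 17 of 40 member promoters (42.5%) and in 9.1% of the 27025 promoters in the table. GGGCGG, the GC box, stood in 62.5% of the members and 35.9% of all. GCATGCGC, from the NRF1 motif, stood in 12.5% and 2.8%, AAGATGGCG, from the YY1 motif, in 5.0% and 1.5%, CCAAT in 47.5% and 37.9%, and TATAAA in 7.5% and 14.2%. Member promoters were also richer in CpG, with a median of 24 CpG in 300 bases beside 7 over all promoters. The promoters set beside the members were not limited to genes tested here, nor matched to the members by level. The 11 ring promoters held ETS letters in 3 and a GC box in 8, and TATAAA in 0. Overlapping hits, as in Lsm7, are printed as 1 run of capitals.

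The Sm ring is the heptamer that encircles the U1, U2, U4 and U5 snRNAs and marks them for import into the nucleus. Its genes did not separate the groups. With mutant PRPF6 1 of 7 was higher and 6 lower, around a median log2 difference of −0.011, and 6 of the 7 lay within 0.09 of 0. Snrpb (chromosome 2, 130171414 to 130179403, minus strand, GRCm38), which encodes SmB and SmB′, was the member of the ring that stood apart, in the values of replicates 1, 2 and 3 in that order here and below. It was at 386, 449 and 383 CPM with wild-type and at 507, 421 and 566 CPM with mutant PRPF6. The log2 difference was 0.29 ± 0.16 (SE; edgeR unadjusted p = 0.0963, adjusted p = 1.00). Its groups overlapped only through mutant replicate 2. The difference was 0.40 without that library and 0.19 without mutant replicate 3. Snrpg, which encodes SmG, had the largest shift the other way, at 137, 131 and 134 CPM with wild-type and 132, 86.2 and 159 CPM with mutant PRPF6. The wild-type libraries of Snrpg were within 7 CPM of each other, while mutant replicate 2 was the lowest and mutant replicate 3 the highest of all 6.

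That order returned in the rest of the ring. Snrpe, which encodes SmE, was at 114, 125 and 123 CPM with wild-type and 123, 80.1 and 158 CPM with mutant PRPF6. Snrpf, for SmF, was at 113, 107 and 90.5 CPM and at 99.0, 75.0 and 136 CPM, and Snrpd1, for SmD1, at 154, 162 and 133 CPM and at 131, 110 and 183 CPM. The mutant means of Snrpe and Snrpf differed from the wild-type means by less than 1 CPM, with 1 mutant library below and 1 above the whole wild-type range. Snrpd2 (SmD2; 120 ± 8.86 and 118 ± 22.3 CPM, SD, n = 3 each) and Snrpd3 (SmD3; 164 ± 8.07 and 162 ± 23.7 CPM) behaved alike. Expected counts of Snrpf were not whole numbers in any of the 6 libraries.

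The LSm ring, LSM2 to LSM8, binds the 3′ end of the U6 snRNA, and all its members except LSM8 also serve in a cytoplasmic ring that takes part in mRNA decay. Fitted means were higher in 6 of 7 genes and lower in 1, and log2 differences ran from −0.14 to 0.15 around a median of 0.026. Lsm4 was the most abundant, at 169, 179 and 179 CPM with wild-type and 192, 148 and 244 CPM with mutant PRPF6 (log2 difference 0.15 ± 0.19, SE). Lsm7 was at 105, 87.7 and 97.7 CPM and at 89.6, 70.2 and 104 CPM (−0.14 ± 0.19), a difference that was −0.0024 without mutant replicate 2 and −0.28 without mutant replicate 3. Groups overlapped in both, and their mutant libraries spread from below to above or near the top of the wild-type range. Lsm8, the subunit particular to the nuclear ring, was at 89.2, 105 and 82.8 CPM with wild-type and 94.8, 69.5 and 117 CPM with mutant PRPF6. Lsm5, the least abundant of the ring in CPM, was at 46.4, 48.6 and 40.9 CPM and at 48.8, 30.8 and 58.5 CPM. Lsm2 (log2 difference 0.076), Lsm3 (0.046) and Lsm6 (112 ± 12.3 and 113 ± 22.5 CPM, SD, n = 3 each) had nearly equal group means.

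Across both rings mutant replicate 2 was the lowest of the 6 libraries in 13 of 14 genes (all but Snrpb), and mutant replicate 3 the highest in 13 of 14 (all but Lsm7). Both held at once in 18 of the 52 members, in 3.99% of all tested genes and in 7.30% of those in the members' range of level. Over all tested genes the separate shares were 12.5% and 17.8%, and over the genes in the members' range of level 18.4% and 26.3%. The mean log2 CPM of the 14 genes, set against its mean over the libraries, was 0.013, 0.082 and −0.087 with wild-type and 0.034, −0.37 and 0.33 with mutant PRPF6. Its standard deviation over libraries was 0.085 in the wild-type group against 0.35 in the mutant group. The mutant libraries thus enclosed the wild-type ones, and the group means were 0.0026 with wild-type and −0.0026 with mutant PRPF6. Among the 38 members outside the rings mutant replicate 2 was lowest in 12 and mutant replicate 3 highest in 21, and the same measure ran from −0.10 (wild-type replicate 3) to 0.19 (mutant replicate 3). These orders were noticed in the data and describe these libraries.

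**Figure D2:**
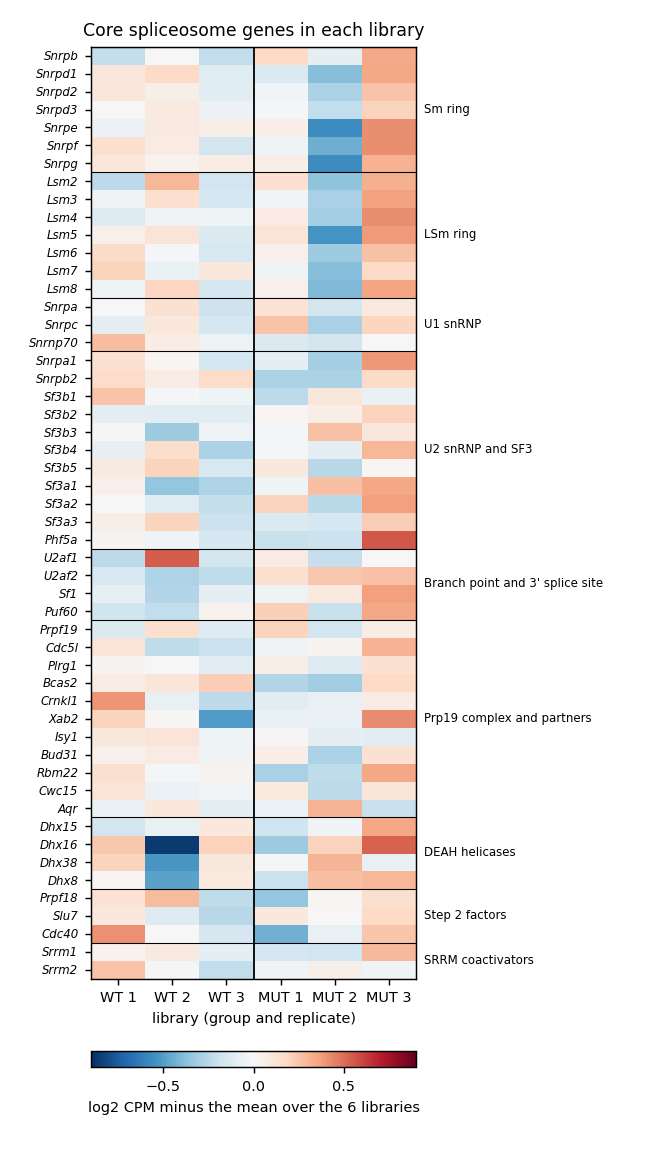
Log2 CPM of each member (rows, grouped by subcomplex) minus its mean over the 6 libraries (columns), with red above and blue below the mean. The Sm and LSm rows are blue in mutant replicate 2 and red in mutant replicate 3, and the helicase rows Dhx16, Dhx38 and Dhx8 are darkest blue in wild-type replicate 2.

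Transcript length was related to the deviations in mutant replicate 2. Most of the 12 members with a transcript under 1000 bases are ring genes, and none of the 9 with 4000 bases or more is (GENCODE M21). In mutant replicate 2 the median deviation from the 6-library mean was −0.37 for the 12 short members and 0.26 for the 9 long ones, and Aqr, Sf3b3 and Dhx38, all long, had their highest value in that library. Across the 52 members, log2 length and the deviation in mutant replicate 2 had a Pearson's r of 0.78 and a Spearman's rho of 0.80, and across the 38 members outside the rings 0.68 and 0.72. The points share 1 library and are genes, not replicates. In mutant replicate 3 r over the members was −0.39. In the other libraries it lay between −0.44 (wild-type replicate 2) and 0.28 (wild-type replicate 1). Over all 13745 tested genes with a length, the median deviation in mutant replicate 2 was −0.22 under 1000 bases and 0.20 from 4000 bases, with r = 0.14 and rho = 0.28. After each library's trends with length and GC were taken out, a setting chosen after the data were seen, the ring mean in mutant replicate 2 was −0.15 and in mutant replicate 3 it was 0.24. Mutant replicate 2 was then lowest in 8 of 14 ring genes and mutant replicate 3 highest in 11, beside 9.8% and 17.8% of all genes, and r with length in mutant replicate 2 was 0.24. Some marker sums were extreme in the same libraries but in other orders. Cycling cell markers summed highest in mutant replicate 3 (2494 CPM) and lowest in mutant replicate 1 (1038 CPM), with 1435 CPM in mutant replicate 2. Wild-type replicate 2 had 1944 CPM. Microglia markers summed highest in mutant replicate 2 (379 CPM), with 18.0 CPM in mutant replicate 1 and 17.2 CPM in mutant replicate 3. The part of these markers in the order of the ring genes was not tested.

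**Figure D3:**
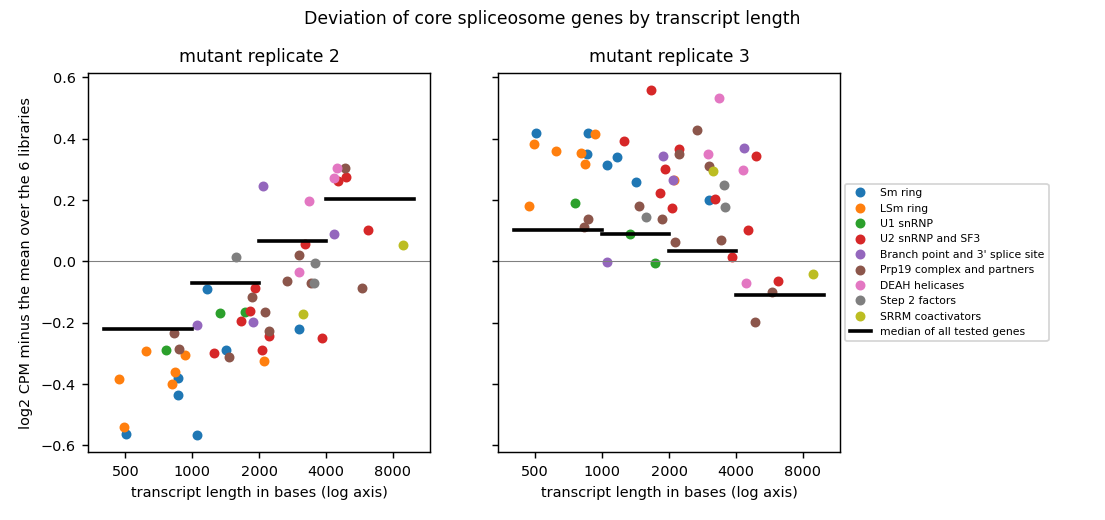
Deviation of each member from its 6-library mean (log2 CPM, vertical axis) against transcript length in bases (horizontal log axis) in mutant replicates 2 and 3, with points coloured by subcomplex. Black lines are medians of all tested genes in 4 length classes; in mutant replicate 2 the members under 1000 bases have a median of −0.37 and those from 4000 bases one of 0.26.

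Snrpa, Snrpc and Snrnp70 encode the proteins particular to the U1 snRNP, which help it find the 5′ splice site. Snrnp70 (chromosome 7, 45376453 to 45395742, minus strand) was at 351, 303 and 279 CPM with wild-type and 264, 258 and 288 CPM with mutant PRPF6. The log2 difference was −0.20 ± 0.14 (SE; edgeR unadjusted p = 0.194). Mutant replicate 3 lay above wild-type replicate 3, so the groups overlapped. Snrpc was at 173, 197 and 165 CPM and at 220, 151 and 211 CPM (0.12 ± 0.18), a difference that was 0.020 without mutant replicate 1 and 0.27 without mutant replicate 2. Snrpa was at 302, 333 and 266 CPM and at 331, 269 and 322 CPM (0.033 ± 0.15), and its expected counts were not whole in any of the 6 libraries. The spread within either group exceeded the difference of means for Snrpa and Snrpc.

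The U2 snRNP proteins and SF3 hold the branch point. Of these 11 genes 7 had higher and 4 lower fitted means, the median log2 difference was 0.13, and it was −0.12 without mutant replicate 3, 0.031 when wild-type replicate 3 was left out and 0.024 with length and GC trends removed. Sf3a1 (chromosome 11, 4160350 to 4182541, plus strand), which encodes the largest SF3a subunit, was at 216, 165 and 174 CPM with wild-type and 205, 254 and 267 CPM with mutant PRPF6. Its log2 difference was 0.39 ± 0.17 (SE; edgeR unadjusted p = 0.0542, adjusted p = 1.00), and only wild-type replicate 1 and mutant replicate 1 overlapped. With single libraries left out it ran from 0.31 (without wild-type replicate 2 or mutant replicate 3) to 0.52 (without wild-type replicate 1). Sf3b2 (chromosome 19, 5273932 to 5295455, minus strand), of the SF3b part, was named after its values were seen. It was at 565, 556 and 558 CPM and at 604, 621 and 688 CPM, so the groups did not overlap, with a small difference of 0.19 ± 0.12 (SE; edgeR unadjusted p = 0.165).

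Other SF3 genes went both ways. Sf3b1, the branch helix clamp of SF3b and the most abundant member in CPM, was at 750, 620 and 610 CPM with wild-type and 534, 675 and 602 CPM with mutant PRPF6 (log2 difference −0.13 ± 0.15, SE). Snrpb2, which encodes U2B″, was at 80.1, 74.6 and 80.0 CPM and at 58.6, 58.4 and 80.6 CPM (−0.25 ± 0.19). Its mutant replicates 1 and 2 lay below every wild-type library, while replicate 3 lay at the top. Sf3b3 was at 308 ± 36.6 and 362 ± 35.1 CPM (SD, n = 3 each; 0.23 ± 0.15, SE) and Sf3a2 at 115 ± 8.23 and 136 ± 28.2 CPM (0.24 ± 0.19). Snrpa1, Sf3b4, Sf3b5, Sf3a3 and Phf5a had differences between −0.090 and 0.16. Subunits of 1 particle therefore gave estimates on both sides of 0, and no pair of them was tested against each other.

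The factors that mark the branch point and the 3′ splice site had a median log2 difference of 0.27, with 3 of 4 higher. U2af2 (chromosome 7, 5062143 to 5079938, plus strand), whose protein binds the polypyrimidine tract, was at 97.5, 88.8 and 92.1 CPM with wild-type and 119, 128 and 129 CPM with mutant PRPF6. The lowest mutant library was above the highest wild-type library by more than 20 CPM. The log2 difference was 0.43 ± 0.14 (SE; 95% interval 0.10 to 0.77; edgeR unadjusted p = 0.0167, adjusted p = 1.00). It was 0.40 to 0.47 when single libraries were left out, and unadjusted p was under 0.05 in 5 of those 6 fits, the exception being without wild-type replicate 2 (0.0578). With length and GC trends removed it was 0.33. U2af1, which encodes the partner subunit that reads the AG of the 3′ splice site, did not show the same order: it was at 137, 236 and 144 CPM and at 170, 140 and 162 CPM (−0.13 ± 0.23), and leaving out wild-type replicate 2 gave 0.16.

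Sf1 (chromosome 19, 6363690 to 6378030, plus strand) encodes the branch point binding protein and was named after its values were seen. It was at 326, 285 and 325 CPM with wild-type and 333, 365 and 444 CPM with mutant PRPF6. The log2 difference was 0.29 ± 0.16 (SE; edgeR unadjusted p = 0.102). The groups did not overlap, though mutant replicate 1 was within 7 CPM of wild-type replicate 1. Puf60 (chromosome 15, 76070182 to 76080924, minus strand), a relative of U2AF2 that also binds pyrimidine tracts, was at 470, 457 and 544 CPM and at 617, 464 and 676 CPM (0.26 ± 0.17). Mutant replicate 2 was again the low one and overlapped the wild-type range. The difference of Puf60 was 0.40 without it and 0.14 without mutant replicate 3. Without mutant replicate 3 the median of these 4 genes was 0.15.

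**Figure D4:**
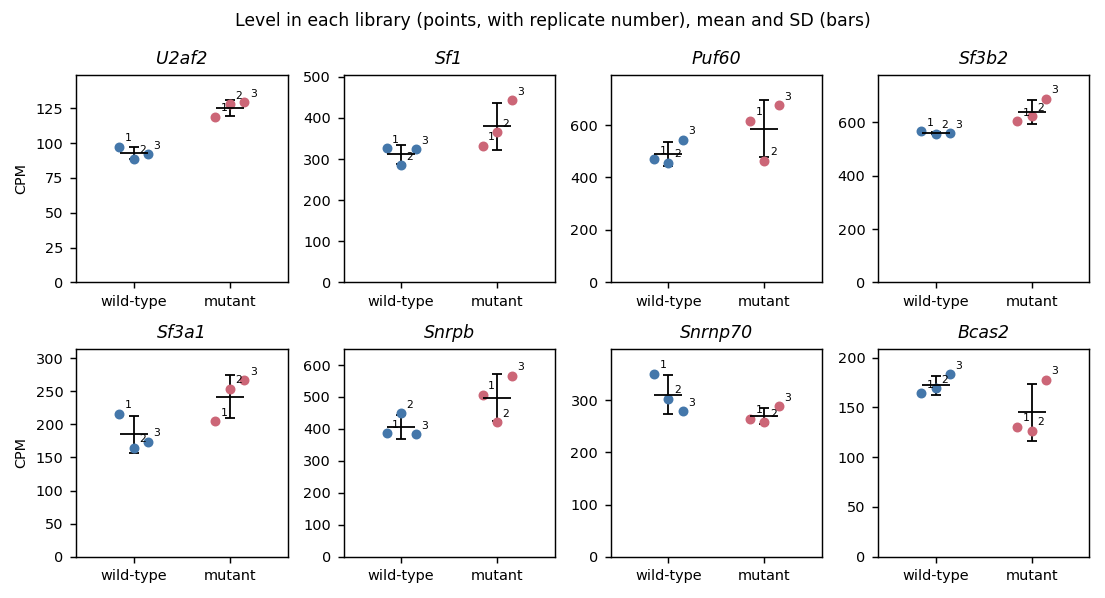
CPM (vertical axes from 0) of 8 members in the 3 wild-type and 3 mutant PRPF6 libraries, with replicate numbers beside the points, the group mean as a horizontal mark and the SD as a bar. The groups are apart for U2af2, Sf1 and Sf3b2 and overlap for Puf60, Sf3a1, Snrpb, Snrnp70 and Bcas2.

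The Prp19 complex and its partners stabilise the catalytic core around U6. Fitted means were higher for 5 of these 11 genes and lower for 6, and log2 differences ran from −0.25 to 0.20 around a median of −0.017. Bcas2 (chromosome 3, 103171655 to 103179166, plus strand), a core subunit, had the lowest estimate. It was at 164, 169 and 183 CPM with wild-type and 131, 127 and 178 CPM with mutant PRPF6 (−0.25 ± 0.17, SE; edgeR unadjusted p = 0.193), with mutant replicates 1 and 2 below every wild-type library and replicate 3 within their range. With single libraries left out the difference ran from −0.42 (without mutant replicate 3; edgeR unadjusted p = 0.0286) to −0.16. Cdc5l, a MYB-like core subunit, was at 156, 122 and 126 CPM and at 140, 146 and 178 CPM (0.20 ± 0.17), a difference that ran from 0.087 (mutant replicate 3 left out) to 0.32 (wild-type replicate 1 left out). Prpf19, the ubiquitin ligase that names the complex, was at 168, 203 and 169 CPM and at 211, 164 and 192 CPM (0.071 ± 0.16). Plrg1, a WD-repeat subunit, was at 102 ± 4.67 and 106 ± 9.34 CPM and Cwc15 at 117 ± 7.57 and 116 ± 14.9 CPM (SD, n = 3 each). Their groups overlapped.

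The associated factors showed no common direction either. Crnkl1, a scaffold of tetratricopeptide-like repeats, was at 91.7, 66.6 and 59.3 CPM with wild-type and 64.9, 66.4 and 73.2 CPM with mutant PRPF6, and Xab2, of the same fold, at 126 ± 30.2 and 144 ± 29.6 CPM (SD, n = 3 each). Isy1, the member with the lowest mean CPM, was at 45.8 ± 2.64 and 42.2 ± 1.84 CPM. Bud31 (56.6 ± 2.22 and 54.8 ± 8.18 CPM, not whole in any of the 6 libraries) and Rbm22 (113 ± 6.22 and 107 ± 27.7 CPM), zinc finger proteins close to the active site, had nearly equal means. Aqr, the intron-binding helicase, was at 93.5 ± 6.41 and 96.9 ± 17.9 CPM, and it was the member whose order was turned round: highest in mutant replicate 2 and lowest in mutant replicate 3.

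The DEAH-box helicases act in sequence, with DHX16 before the branching step, DHX38 between the steps, DHX8 at release of the mRNA and DHX15 at disassembly. All 4 had higher fitted means with mutant PRPF6 (log2 differences 0.10 to 0.25, median 0.18), and in all 4 the groups overlapped. Dhx8 was at 81.7, 57.8 and 85.6 CPM with wild-type and 70.5, 97.4 and 99.2 CPM with mutant PRPF6 (0.25 ± 0.22, SE), and Dhx15 at 215, 230 and 257 CPM and 213, 235 and 307 CPM (0.10 ± 0.18). Dhx16 was at 91.8, 42.7 and 89.6 CPM and at 62.3, 89.0 and 112 CPM, with the widest interval of all members (−0.53 to 1.00), and Dhx38 at 52.9, 32.1 and 49.5 CPM and at 45.6, 56.9 and 43.9 CPM. Wild-type replicate 2 was the lowest library for Dhx16, Dhx38 and Dhx8. Without it the median of the 4 was 0.020. Without mutant replicate 3 the difference of Dhx15 was −0.064.

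The step 2 factors place the 3′ splice site for exon joining. Slu7 was at 98.5, 85.0 and 77.4 CPM with wild-type and 98.5, 91.7 and 104 CPM with mutant PRPF6 (log2 difference 0.17 ± 0.17, SE). Prpf18 was at 101, 113 and 79.0 CPM and at 72.9, 93.6 and 103 CPM (−0.12 ± 0.21), and Cdc40, the homologue of yeast Prp17, at 89.4, 67.1 and 60.6 CPM and at 49.8, 64.1 and 80.0 CPM (−0.16 ± 0.24). The groups overlapped in each. SRRM1 and SRRM2 are serine- and arginine-rich coactivators of splicing, and SRRM2 is a scaffold of nuclear speckles. Srrm2, the longest transcript of the set at 8864 bases, was at 652, 539 and 469 CPM with wild-type and 535, 568 and 531 CPM with mutant PRPF6 (−0.022 ± 0.15), and Srrm1 was at 182 ± 10.9 and 182 ± 34.6 CPM (SD, n = 3 each). The group means of both were close to equal.

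Per length the members spanned a wide range. CPM per kilobase of transcript, as the mean over the 6 libraries, ran from 7.54 for Isy1 to 389 for Snrpb. In the Sm ring it fell in the order Snrpb, Snrpe (240), Snrpd1 (169.6), Snrpg (123), Snrpf (120.0), Snrpd2 (83.7) and Snrpd3 (53.7), where the ranges over libraries of Snrpg (81.7 to 151) and Snrpf (87.2 to 158) overlapped almost entirely. In the LSm ring Lsm4 (200.3) and Lsm7 (197) led, and Lsm6 (53.4) was last. The U1 genes lay between 168 and 245, and U2 and SF3 genes between 24.6 (Sf3b5) and 186 (Sf3b2). Puf60 (286) stood above U2af1 (158), Sf1 (79.5) and U2af2 (52.2), with library ranges of U2af1 and U2af2 apart. Of the helicases, Dhx15 (80.6) had a higher level per length than Dhx16 (24.3), Dhx8 (19.0) and Dhx38 (10.5), and its range over libraries did not overlap theirs. These levels depend on the transcript chosen for each gene, here 1 of median length among the principal isoforms.

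**Figure D5:**
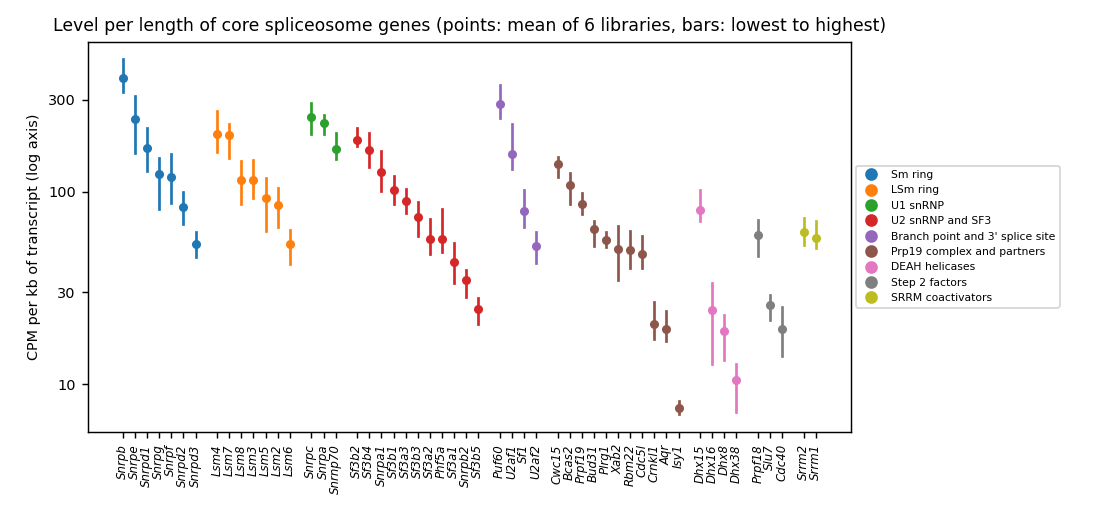
CPM per kilobase of transcript (vertical log axis) of the 52 members, ordered by level within each subcomplex. Points are means over the 6 libraries and bars run from the lowest to the highest library; Snrpb at 389 is the highest and Isy1 at 7.54 the lowest.

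Other spliceosome genes gave 0 calls as well. Of 24 tri-snRNP genes 15 were higher and 9 lower (median log2 difference 0.047). At an unadjusted p under 0.05 stood 2 of the 24, both higher, beside 3.38% of all tested genes (2.18% higher). These were Snrnp200 and Prpf3. Snrnp200, a helicase that separates U4 and U6, was at 192, 153 and 180 CPM with wild-type and 250.2, 288 and 248 CPM with mutant PRPF6. Its log2 difference was 0.58 ± 0.15 (SE, edgeR unadjusted p = 0.00476). Prpf3 was at 88.9, 76.4 and 66.2 CPM and at 121, 90.9 and 148 CPM (0.64 ± 0.22, SE, edgeR unadjusted p = 0.0196). Prpf6 itself, in which reads from the plasmid could not be told from those of the endogenous gene, was at 166, 124 and 132 CPM and at 131, 145 and 125 CPM, a log2 difference of −0.073 (95% interval −0.46 to 0.31). Of 18 genes for Sm ring assembly and related LSm proteins 9 were higher and 9 lower (median 0.027), and Snrpn, a paralogue of Snrpb expressed in neurons, was at 293 ± 34.2 and 254 ± 46.3 CPM (SD, n = 3 each). Auxiliary U1 and U2 factors were higher in 5 and lower in 14 of 19 (median −0.086), beside 50.2% of all tested genes lower. Their mean log2 CPM, set against its mean over the libraries, was 0.24, −0.024 and −0.060 with wild-type PRPF6. With mutant PRPF6 it was −0.13, −0.12 and 0.088. Rbm25 had the smallest p of the list (edgeR unadjusted p = 0.0630). It was at 411, 269 and 232 CPM with wild-type and 206, 219 and 233 CPM with mutant PRPF6. Further factors of the catalytic spliceosome were higher in 11 and lower in 9 of 20 (median 0.011). None of these lists was tested against the 52 members. Beside these medians stood 0.028 for the members and −0.0013 for all tested genes.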

How the data were processed

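The authors deposited unscaled RSEM expected counts for each gene, on mm10, per the submitters' processing notes. No version, aligner, annotation, strand setting or filter is stated (not given in the sources used here). Per the series' design text, cDNA was amplified from picogram amounts of RNA with a low-input kit, and molecular identifiers are not mentioned. The library totals exceed the read number that text states. Expected counts were rounded to whole numbers, filtered with filterByExpr, scaled by TMM (factors 0.972 to 1.02) and tested with edgeR 4.0.16 in R 4.3.3 (two-sided robust quasi-likelihood test with a group term alone, Benjamini-Hochberg adjustment over 14451 genes, threshold 0.05). The SE is the log2 difference divided by the square root of F. Scores used log2 CPM with a prior count of 2. Groups came from the sample titles.

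Alternatives were DESeq2 1.42.0, limma 3.58.1 (voom), other scalings, filters and thresholds, no robust estimation, a replicate block, each library left out, and, added after the data were seen, length and GC trends removed (lowess span 0.3). The members, lists and tests were chosen with earlier results of these data known. Values in every library are given for members at an unadjusted p under 0.05 and, in each subcomplex, for the member of smallest p, of largest mean CPM and of largest difference in each direction; per-library values of other members were added for illustration. Coordinates, lengths (transcript of median length among those of best APPRIS rank) and GC are from GENCODE M21 on GRCm38, matched by symbol for all 52 members. Exons of 16 members overlap another gene, 13 of them on the other strand, and without a known strand setting those reads cannot be separated. Sf1 and Sf3b2, whose groups did not overlap, are among those 13, while U2af2 is not. Of the members 4 had values that were not whole (Snrpf, Snrpa, Bud31 and, in 1 library, Prpf19). The fit was tested on simulated data with changes larger than any member's difference, so that test does not bear on differences of the size seen here. Of the marker genes, 1 is not reported here and was left out of its list.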

Additional observations from a re-analysis of the deposited data

How the results depend on the processing

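Over the fits that left out 1 library, the number of members at an unadjusted p under 0.05 (edgeR) ran from 0, without wild-type replicate 2, to 4, without mutant replicate 2 (Snrpb, Sf3a2, U2af2 and Puf60), against 1 with all libraries. Of all tested genes 443 of 15088 stood at that p without wild-type replicate 2, and 1016 of 14807 without mutant replicate 2. With all libraries 489 of 14451 did. Without mutant replicate 3 the members were U2af2, higher, and Bcas2, lower, beside 531 of 15160 genes. The number of members was 2 with DESeq2 (815 of 17679 genes) and 2 with length and GC trends removed (498 of 13745 genes). These were Sf3a1 and U2af2 in both. Genes past an adjusted p of 0.05 were 12 with DESeq2, none of them a member, and 0 in the other fits. With all libraries edgeR called 0 at a threshold of 0.1 as well. In the same leave-one-out fits the median log2 difference ran from −0.12 to 0.17 for the U2 snRNP and SF3 genes and from 0.15 to 0.36 for the branch point and 3′ splice site genes, with the lowest values without mutant replicate 3. The median over the 52 members turned sign (−0.11 to 0.15), as did those of the Sm ring (−0.25 to 0.12), the LSm ring (−0.15 to 0.20), U1 (−0.043 to 0.12), the Prp19 group (−0.079 to 0.072), the step 2 factors (−0.25 to 0.019) and SRRM (−0.089 to 0.061). Signs also turned for Snrpg (−0.29 to 0.12), Lsm4 (−0.046 to 0.31), Snrpa (−0.043 to 0.12), U2af1 (−0.27 to 0.16), Prpf19 (−0.018 to 0.16), Dhx15 (−0.064 to 0.21), Prpf18 (−0.25 to 0.0038), Cdc40 (−0.35 to 0.019) and Srrm2 (−0.12 to 0.11). Values kept their sign but moved by over 1.5 times for Snrnp70 (−0.27 to −0.11), Sf3b1 (−0.22 to −0.027), Snrpb2 (−0.42 to −0.17), Dhx8 (0.088 to 0.39) and Slu7 (0.10 to 0.27). So did those of Sf1 (0.16 to 0.37, lowest without mutant replicate 3) and, as given above, of Snrpb, Lsm7, Snrpc, Puf60, Bcas2 and Cdc5l. With length and GC trends removed Snrpa was at −0.054, Prpf19 at −0.018 and Srrm2 at 0.017. The cause of these turns was not tested. With the replicate block 0 genes passed, 307 genes stood at an unadjusted p under 0.05 against 489 without it (815 with DESeq2, 1016 without mutant replicate 2), and 0 members did (U2af2: 0.0527). Same-numbered libraries correlated at 0.054, 0.061 and −0.26 in their deviations from the group means, and differently numbered ones at −0.25 to 0.26. With 3 libraries a group these values cannot show whether the numbers pair the libraries. Both groups carry the numbers 1, 4 and 5 in the submitters' descriptions, and the labels do not say what they mean. Precision is limited by 3 libraries a group, not by the depth of the members.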
